A study of Mus musculus with 8 samples.

Results

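Wnt genes encode secreted lipid-modified glycoproteins that bind Frizzled receptors with Lrp5 or Lrp6, or act through Ror and Ryk receptors. Canonical Wnt signals stabilise β-catenin, which acts with Tcf and Lef factors on target genes. In skin they are needed for hair follicle placodes, and basal epidermal cells make several Wnt ligands themselves. H2AK119ub, a form of histone H2A that carries ubiquitin, is placed by Polycomb repressive complex 1 (PRC1) and is typical of silent developmental genes. Eed belongs to the core of PRC2, the complex that methylates a lysine of histone H3, and some forms of PRC1 bind that methyl mark.

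The 10 Wnt ligand genes described here are Wnt1, Wnt3, Wnt3a, Wnt4, Wnt5a, Wnt6, Wnt7b, Wnt9b, Wnt10a and Wnt10b, out of 21887 protein-coding genes and out of 19 Wnt ligand genes in the mouse gene table. They were chosen by name with their peak positions in these lists in view, so what follows describes their peaks and tests nothing on them. For each gene, all H2AK119ub peaks overlapping the RefSeq gene span with 20 kb on either side by at least 1 bp were taken. A control peak was counted as kept where it overlapped an Eed cKO peak and as lost where it did not. An Eed cKO peak overlapping no control peak was counted as newly called.

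The peaks came from basal progenitor cells of the epidermis, taken from mice on postnatal day 0 and sorted from back skin as EpCAM-positive, Sca1-positive cells with high α6-integrin. The series holds 2 control and 2 Eed cKO libraries of H2AK119ub chromatin immunoprecipitation, 1 library from Ring1a/b 2KO cells and 1 input per genotype. The Eed cKO cells are labelled Eed-/- and the 2KO cells Ring1a-/- Ring1b-/-. The sources used here do not give the promoter that drives the deletion, the strain or any further allele of the controls. Each of the control and Eed cKO genotypes has 1 peak list, and the 2KO library and the inputs were not analysed here. The lists give positions only, so read depth is unknown, no value has a replicate error, and a mark in fewer cells cannot be told apart from a weaker mark in all cells. Fewer reads or a stricter threshold behind a list can also remove peaks. The control list held 4621 peaks over 29.0 Mb and the Eed cKO list 2541 peaks over 16.6 Mb. Peak positions give no expression level, so the labelled cell type could not be checked by its markers. Of the basal keratinocyte genes Krt5, Krt14, Trp63, Itga6, Epcam and Ly6a, only Krt5 had a control peak in its window, 6171 bp outside the gene, and 0 had an Eed cKO peak.

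H2AK119ub lay near most of the 10 ligand genes in both genotypes. In the windows of 7 of them, some of which share peaks, the Eed cKO peaks covered more sequence than the control peaks. In control 8 of the 10 genes had a peak in their window, against 21.2% of all protein-coding genes. In Eed cKO 9 of the 10 had one, against 14.3%. Peaks of both lists were found at 7 genes (11.7% of all genes), namely Wnt1, Wnt3, Wnt3a, Wnt6, Wnt9b, Wnt10a and Wnt10b. These were 7 of the 8 genes with a control peak, and over all genes with a control peak 55.1% had an Eed cKO peak too. With windows of 2 or 10 kb, only 5 of the 10 genes had peaks of both lists, since Wnt3a and Wnt10b left this class. Wnt5a was the gene with control peaks alone (9.52% of all genes), and Wnt4 and Wnt7b had Eed cKO peaks alone (2.65% of all genes). These shares chose the members and are given as a description.

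Several of the genes are neighbours and share peaks, so the 10 windows form 7 separate stretches of 577 kb in all. Over these stretches there were 7 different control peaks, of which 5 were kept and 2 lost. Over the whole control list 37.9% of peaks were kept and 62.1% lost. Of the 11 different Eed cKO peaks, 6 overlapped a control peak and 5 were newly called, against 29.9% newly called over the whole Eed cKO list. The control peaks were 3.83 to 24.7 kb wide with a median of 6415 bp, and the Eed cKO peaks 5.80 to 30.5 kb with a median of 7785 bp. The medians over the whole lists were 4327 and 5169 bp.

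Control peaks covered 70.5 kb of the 7 stretches and Eed cKO peaks 111 kb. The Eed cKO total was thus 158% of the control total, while over all peaks of the lists it was 57.3%. Of the control peak sequence in the stretches, 60.9% also lay in an Eed cKO peak, compared with 36.8% over the whole control list. In the windows of these 10 genes more sequence was thus called in Eed cKO, while less was called over the whole lists. The Wnt6 and Wnt10a pair alone gained 23.6 kb, and the Wnt9b and Wnt3 pair 12.5 kb. The genes were chosen with these peaks in view, so the difference from the whole lists is only a description. More Eed cKO than control sequence was found at 7 genes, against 33.0% of all genes with any peak in their window, and less at Wnt1, Wnt5a and Wnt10b. These 7 are not separate gains. Wnt6 and Wnt10a share the same peaks, newly called peaks inside Wnt3 also enter the Wnt9b window, and the peaks counted for Wnt3a lie outside its span.

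**Figure D1:**
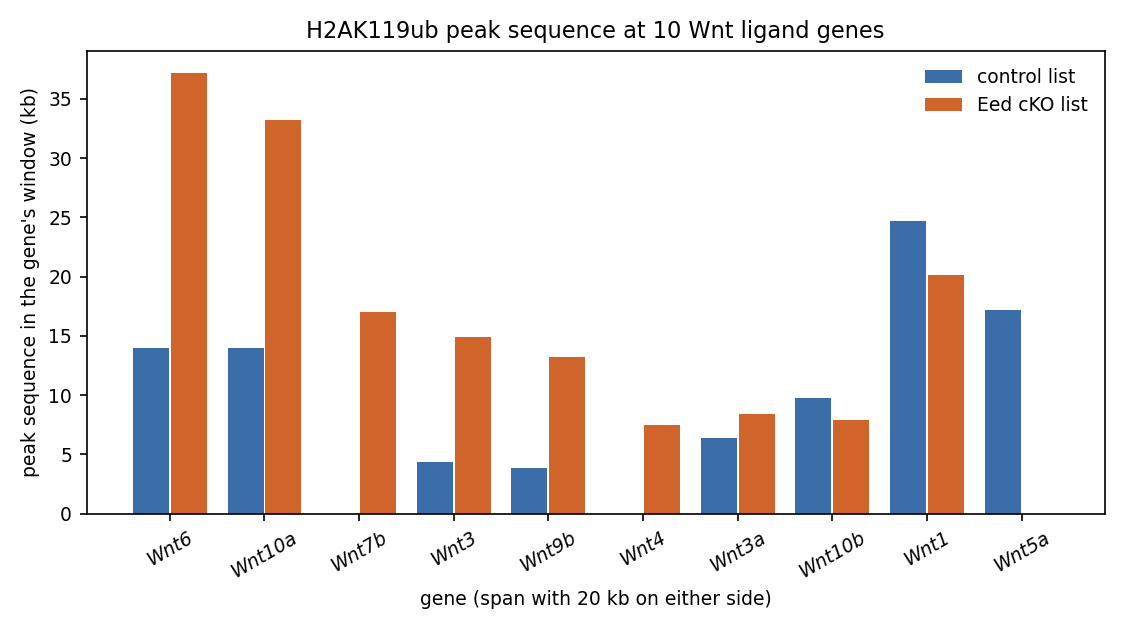
H2AK119ub peak sequence in the window of each of the 10 Wnt ligand genes, in kb (vertical axis), for the control list (blue) and the Eed cKO list (orange), ordered by the difference. Eed cKO bars are the taller ones from Wnt6 to Wnt3a, Wnt7b and Wnt4 have no control bar, and Wnt5a has no Eed cKO bar; neighbouring genes share peaks, and there is 1 list per genotype and so no error bar.

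At the start sites of these genes the lists differed at Wnt4 and Wnt6. RefSeq start sites with strand (GRCm38.p6, the assembly also called mm10) were matched for 7 of the members. A control peak covered the start site of 2 of them, Wnt1 and Wnt9b, against 6.42% of 17492 genes with a start site. An Eed cKO peak covered 4 of them, Wnt1, Wnt9b, Wnt4 and Wnt6, against 3.72%. At Wnt6 and Wnt9b the start site given lies inside the span, and the span's outer end on that side lay in no peak of either list. The start sites of Wnt4 and Wnt6 were thus covered in Eed cKO alone, which held for 0.938% of genes. The start sites of Wnt3, Wnt3a and Wnt10b were in no peak of either list. Wnt5a, Wnt7b and Wnt10a were not matched.

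The 250 bases before the start site are shown for 4 members that stand for these patterns, with each CG dinucleotide in capitals, since CG-rich DNA is where PRC1 marks are usually found. Wnt1 was covered in both lists, Wnt6 and Wnt4 in Eed cKO alone, and Wnt3 in neither, although newly called peaks lay inside the gene. The sequences are from RefSeq, GRCm38.p6.
Wnt1, chr15:98789607-98789856, strand +: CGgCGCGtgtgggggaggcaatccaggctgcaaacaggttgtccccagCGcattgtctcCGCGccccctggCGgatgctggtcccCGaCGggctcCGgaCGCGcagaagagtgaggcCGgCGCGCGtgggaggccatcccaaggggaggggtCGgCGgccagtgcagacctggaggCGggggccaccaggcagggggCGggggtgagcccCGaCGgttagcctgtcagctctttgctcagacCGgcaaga
Wnt6, chr1:74771642-74771891, strand +: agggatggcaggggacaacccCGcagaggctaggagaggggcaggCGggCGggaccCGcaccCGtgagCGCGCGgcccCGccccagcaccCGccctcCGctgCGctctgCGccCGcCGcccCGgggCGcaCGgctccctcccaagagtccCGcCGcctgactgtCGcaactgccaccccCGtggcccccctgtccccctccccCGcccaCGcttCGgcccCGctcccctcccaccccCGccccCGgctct
Wnt4, chr4:137277385-137277634, strand +: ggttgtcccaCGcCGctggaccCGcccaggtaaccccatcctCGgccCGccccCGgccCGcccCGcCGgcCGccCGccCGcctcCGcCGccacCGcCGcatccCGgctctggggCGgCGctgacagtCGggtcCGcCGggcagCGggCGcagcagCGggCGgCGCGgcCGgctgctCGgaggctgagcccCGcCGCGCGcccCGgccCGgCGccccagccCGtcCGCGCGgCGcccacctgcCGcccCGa
Wnt3, chr11:103773925-103774174, strand +: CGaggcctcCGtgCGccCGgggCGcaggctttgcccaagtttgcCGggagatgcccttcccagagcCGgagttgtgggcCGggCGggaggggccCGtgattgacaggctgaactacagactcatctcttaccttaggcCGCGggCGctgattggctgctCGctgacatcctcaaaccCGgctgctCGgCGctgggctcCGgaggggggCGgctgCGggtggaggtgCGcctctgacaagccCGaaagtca

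The 250-base windows of the 7 matched members held 14 to 44 CG dinucleotides with a median of 23, while the median over all 17492 genes was 10. Over all genes the median was 15 where the start site lay in a control peak, 15 where it lay in an Eed cKO peak and 9 where it lay in neither. Wnt4, the gene with a newly called peak over its start, had 44 CG and exceeded 99.4% of all genes. Wnt3a had 41 and lay in no peak, so the number of CG did not sort the covered from the uncovered members. Wnt6 had 28, Wnt1 had 23, Wnt3 and Wnt9b had 22 each, and Wnt10b had the lowest number, 14. The letters CTTTGA, the core of the site bound by Tcf and Lef factors, were searched on both strands and found in 0 of the 7 windows and in 13.1% of all windows.

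Wnt6 and Wnt10a, neighbours on chromosome 1, showed the largest gain of called sequence among the members. Wnt10a is needed for hair follicle and tooth development, and Wnt6 is expressed in surface ectoderm. The RefSeq span of Wnt6 (gene ID 22420) runs from 74754342 to 74785322 and that of Wnt10a (gene ID 22409) from 74792019 to 74804176, with 6.70 kb between them. The start site of Wnt6 used here, 74771892, lies inside its span, which takes in transcripts that begin further out. In control a 9.42 kb peak (74781796 to 74791214) covered 3.53 kb of the Wnt6 span and most of the stretch between the genes, ending 804 bp short of Wnt10a. A separate 4.58 kb control peak (74800004 to 74804579) covered 4.17 kb of Wnt10a.

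In Eed cKO both control peaks lay wholly inside wider peaks. The peak between the genes was 30.5 kb wide (74767630 to 74798101), wider than 99.4% of the Eed cKO list. It reached 14.2 kb further into Wnt6 and 6.89 kb further on the Wnt10a side, so that 6.08 kb of it lay in Wnt10a. It thus took in the start site of Wnt6 and the lower-coordinate end of Wnt10a. The peak at the other end of Wnt10a was 7.09 kb wide (74798560 to 74805650). Only 458 bp separated these Eed cKO peaks, where the control peaks lay 8.79 kb apart. Over the joined window of the pair, Eed cKO peaks covered 37.6 kb, 2.68 times the 14.0 kb of the control peaks.

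Wnt3 and Wnt9b, neighbours on chromosome 11, differed from each other in what happened to their control peaks. Wnt9b acts in kidney tubule and face formation, and Wnt3 in gastrulation and limb outgrowth. Wnt9b (gene ID 22412) spans 103727362 to 103775272 and Wnt3 (gene ID 22415) spans 103774175 to 103818021, so the annotated spans overlap by 1098 bp. At Wnt9b a 3.83 kb control peak (103746274 to 103750100) covered the start site at 103749821. It was kept, with 91.7% of it inside a 5.80 kb Eed cKO peak (103746591 to 103752392) that also covered the start site. This control peak is narrower than most of its list, with 43.4% of control peaks narrower still, and it dropped out when the control list was limited to its wider peaks.

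At Wnt3 the lists had no base in common. The control peak was 4.35 kb wide (103808446 to 103812794) and lay 34.3 to 38.6 kb after the Wnt3 start site. It was lost. In Eed cKO, newly called peaks of 6.83 kb (103777214 to 103784046) and 8.05 kb (103794748 to 103802801) lay inside the gene, the first of them from 3.04 kb after the start site and the second ending 5.64 kb before the control peak. Peak sequence in the Wnt3 window came to 4.35 kb for control and 14.9 kb for Eed cKO. Of the genes with peaks of both lists in their window, 7.37% shared this pattern in which no peak of one list met a peak of the other. The newly called Wnt3 peaks also fall in the 20 kb window of Wnt9b, where they lie 1.94 and 19.5 kb beyond its span.

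Set side by side, the Wnt6 and Wnt10a pair had 2 control peaks, both kept and widened, and 0 newly called peaks. The Wnt9b and Wnt3 pair had 2 control peaks, 1 kept and 1 lost, and 2 newly called peaks. Covered control sequence was 100% at Wnt6 and Wnt10a and 42.9% at Wnt9b and Wnt3. Called sequence was higher in Eed cKO at both pairs, 2.68 times at the former and 2.53 times at the latter, where it went from 8.18 to 20.7 kb. At the former the added sequence adjoined control peaks, and at the latter most of it stood apart from them. Where 50% of a peak had to be covered, the 30.5 kb peak at Wnt6 and Wnt10a counted as newly called, since control peaks covered 30.9% of it.

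**Figure D2:**
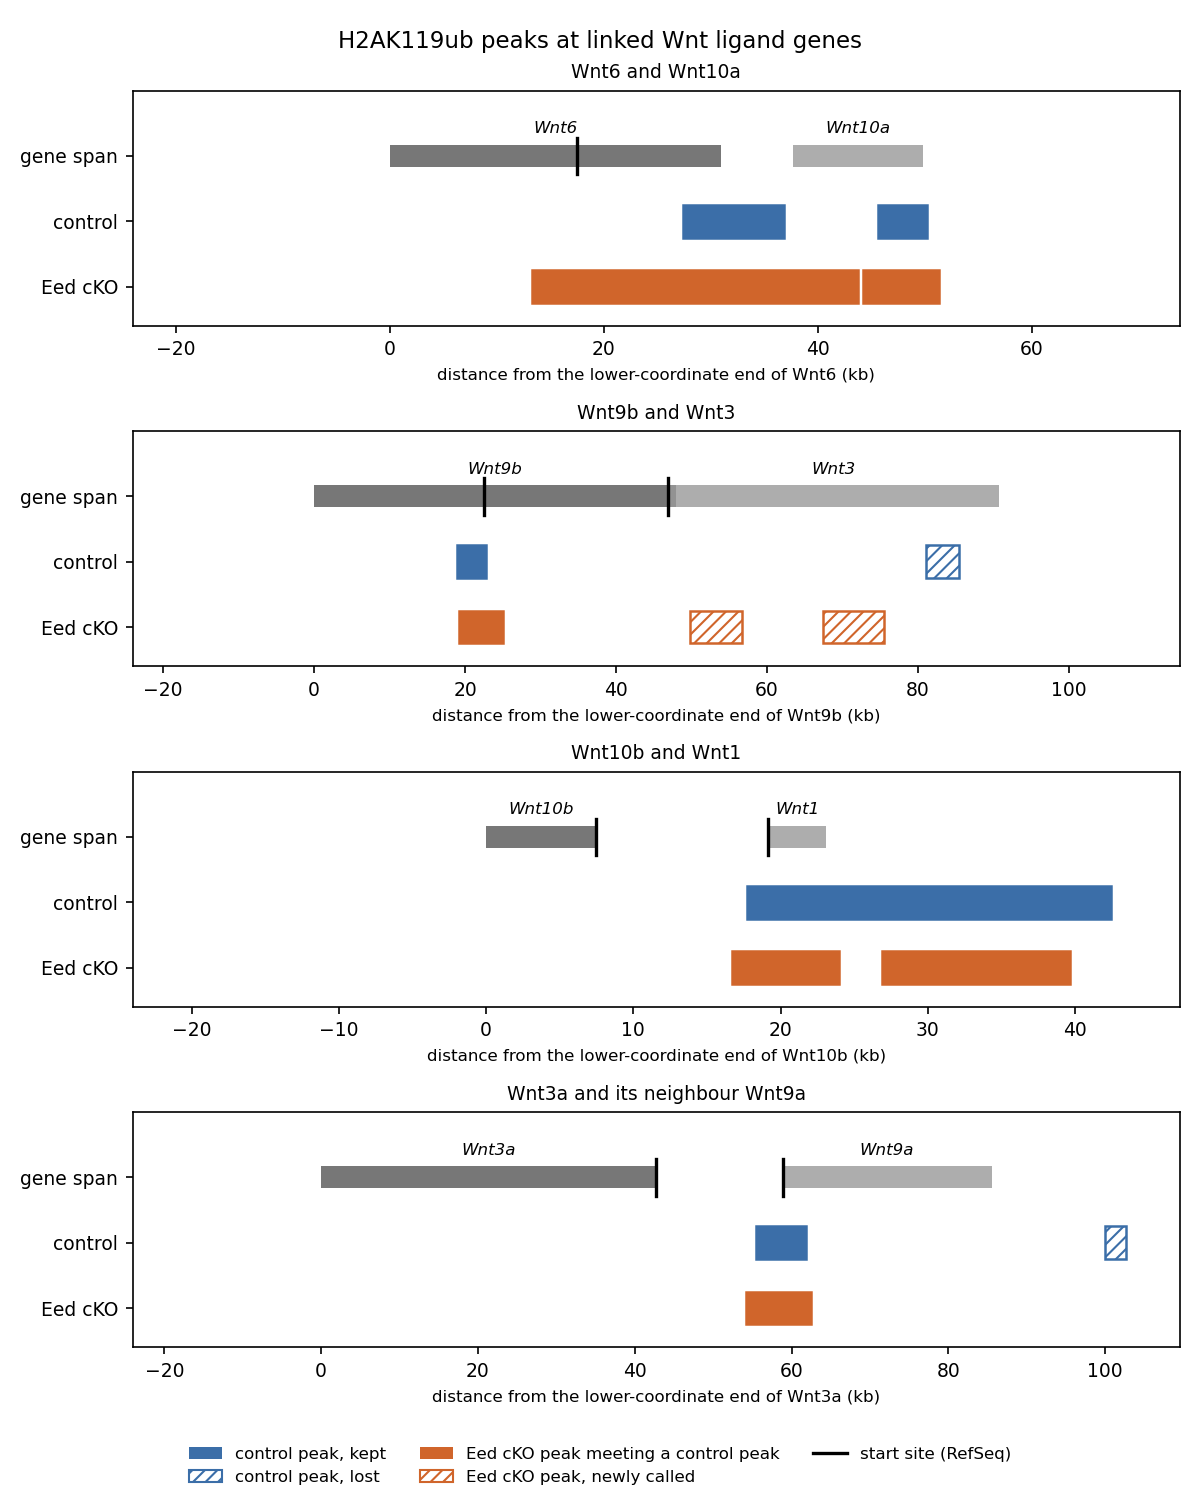
Map of H2AK119ub peaks at 3 linked pairs of Wnt ligand genes and at Wnt3a with its neighbour Wnt9a, against distance in kb from the lower-coordinate end of the first gene. Grey bars are gene spans, blue bars control peaks, orange bars Eed cKO peaks, hatched bars peaks that meet no peak of the other list, and black ticks RefSeq start sites; a 30.5 kb Eed cKO peak joins Wnt6 to Wnt10a, Wnt3 holds hatched bars alone, and the 24.7 kb control peak at Wnt1 is met by 2 Eed cKO peaks.

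Wnt1 and Wnt10b are also linked, on chromosome 15, and here the called sequence was lower in Eed cKO. Wnt1 patterns the midbrain, and Wnt10b is an early ligand of the hair follicle placode. Wnt10b (gene ID 22410) spans 98770712 to 98778206 and Wnt1 (gene ID 22408) spans 98789857 to 98793830, with 11.7 kb between them. A single 24.7 kb control peak (98788460 to 98813184), wider than 97.0% of the control list, covered the whole of Wnt1 and went on over Ddn, which encodes the neuronal protein dendrin, to the edge of Prkag1, a gene of the energy sensor AMPK. In Eed cKO this region held a 7.28 kb peak over Wnt1 (98787405 to 98794682) and a 12.8 kb peak over Ddn (98797610 to 98810384), with a gap of 2.93 kb. Together they measured 20.1 kb and covered 76.8% of the control peak, and neither reached Prkag1.

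The span of Wnt10b itself held no peak of either list. Its window was entered only by the Wnt1 peaks, which began 10.3 kb from its span in control and 9.20 kb from it in Eed cKO. Wnt10b therefore counted as marked in both lists through peaks at its neighbour. With a window of 10 kb it counted in Eed cKO alone, and with 2 kb in neither list.

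Wnt3a was in the same position. It drives somite and tail formation, and its span (gene ID 22416, chromosome 11, 59248036 to 59290751) held no peak. The peaks in its window lay over the start site of Wnt9a, the next ligand gene, which begins 16.1 kb away. Their widths were 6.42 kb for control (59303480 to 59309894) and 8.37 kb for Eed cKO (59302189 to 59310557), and the control peak lay wholly inside the Eed cKO peak. These peaks were 12.7 and 11.4 kb from the Wnt3a span, so windows of 10 and 2 kb left Wnt3a unmarked in either list.

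**Figure D3:**
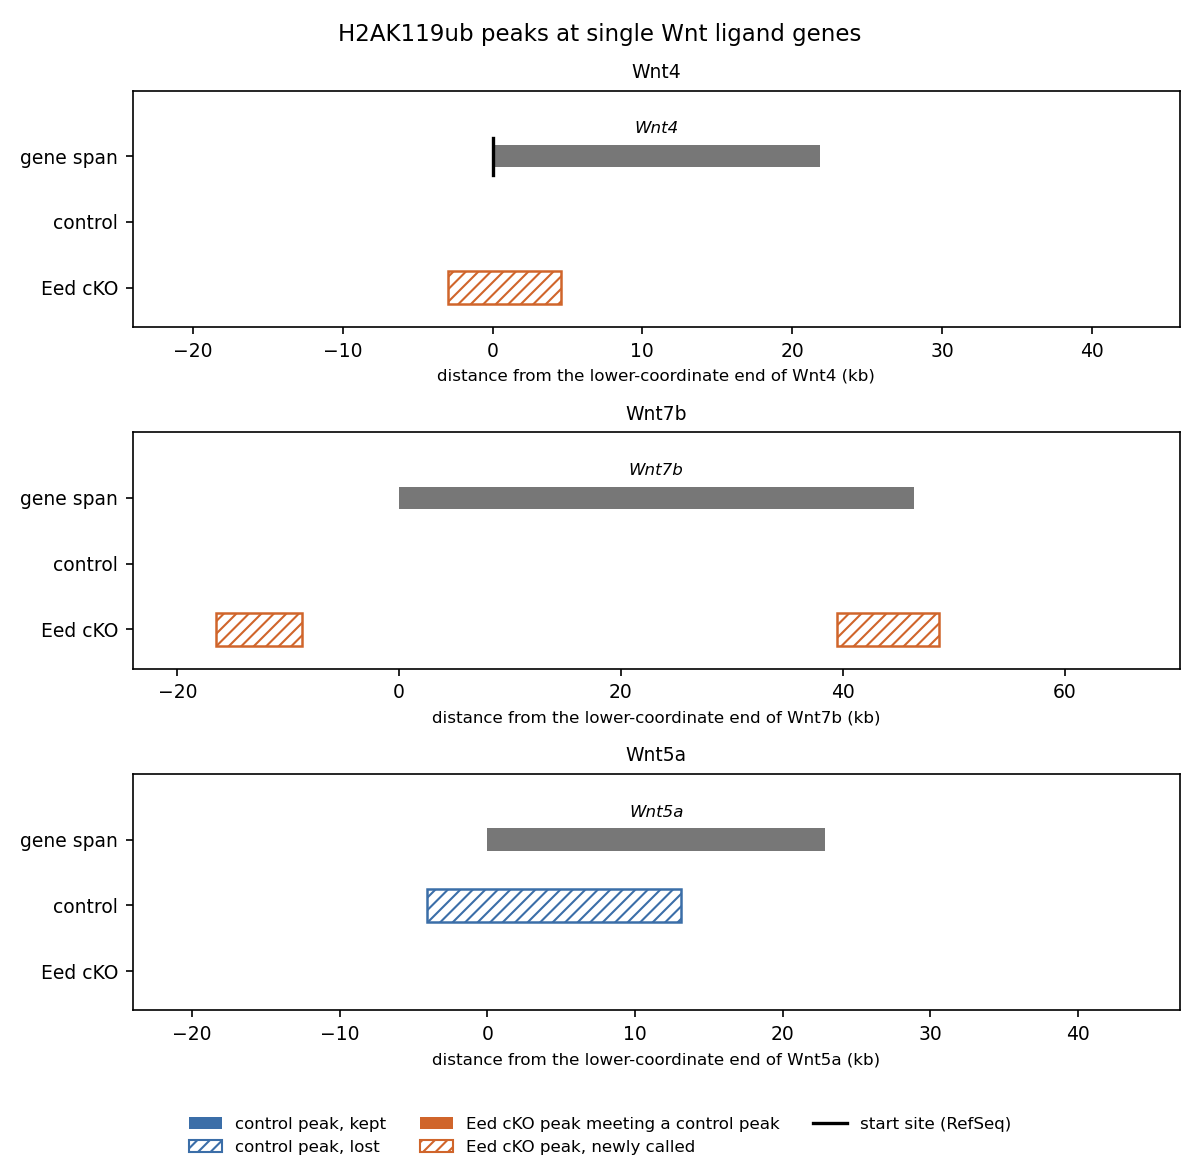
Map of H2AK119ub peaks at Wnt4, Wnt7b and Wnt5a, against distance in kb from the lower-coordinate end of each gene, with grey gene spans, blue control peaks, orange Eed cKO peaks and a black tick at the RefSeq start site of Wnt4. All bars are hatched because none meets a peak of the other list: Wnt4 and Wnt7b carry Eed cKO peaks alone and Wnt5a a 17.2 kb control peak alone.

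Wnt4 and Wnt7b were the members with newly called peaks and no control peak. Wnt4, which acts in kidney and in the female reproductive tract and is expressed in epidermis, spans 137277635 to 137299501 on chromosome 4 (gene ID 22417). Its 7.52 kb Eed cKO peak (137274689 to 137282208) ran from 2.95 kb before to 4.57 kb after the start site. The nearest control peak lay 202 kb from it, and the gene kept its class under each window from 2 to 50 kb. Wnt7b, a ligand of lung and skin epithelium, spans 85535437 to 85581821 on chromosome 15 (gene ID 22422). A 9.19 kb Eed cKO peak (85574950 to 85584138) lay across its higher-coordinate end, with 6.87 kb inside the span. A second one of 7.79 kb (85518890 to 85526674) lay 8.76 kb outside the lower-coordinate end. The nearest control peaks were 28.9 and 86.4 kb from these peaks, and with a window of 50 kb Wnt7b counted in both lists.

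Wnt5a was the only member without an Eed cKO peak in its window. It is the main ligand of β-catenin-independent signalling through Ror2 and drives limb and body outgrowth. Its span runs from 28504543 to 28527448 on chromosome 14 (gene ID 22418). The control peak was 17.2 kb wide (28500492 to 28517680), wider than 94.4% of its list, and covered 13.1 kb of the gene and its lower-coordinate end. No base of it was called in Eed cKO, where the nearest peak lay 40.9 kb away. A loss at a peak of this width contrasts with the other wide control peak among the members, at Wnt1, which was called again over most of its length. Over the whole control list 62.1% of peaks were lost, and the share lost among wide peaks was not worked out.

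Among peaks matched 1 to 1 between the lists, the Eed cKO peak was the wider in all 4 pairs at the members. The kept control peak at Wnt1 is not among these pairs, since it met 2 Eed cKO peaks. It was 24.7 kb wide, and the 2 Eed cKO peaks measured 20.1 kb together. Over the whole lists the Eed cKO peak was wider in 53.0% of 1470 pairs matched 1 to 1, with a median ratio of 1.02. The ratio of Eed cKO to control width was 3.24 for the peak between Wnt6 and Wnt10a, higher than in 97.3% of all pairs. It was 1.55 for the peak at Wnt10a, 1.52 for the peak at Wnt9b and 1.3 for the peak in the Wnt3a window, which were higher than in 79.9%, 79.2% and 70.3% of all pairs. The last 3 ratios lie within the common range of the lists, and the Wnt6 and Wnt10a ratio lies near its upper end.

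**Figure D4:**
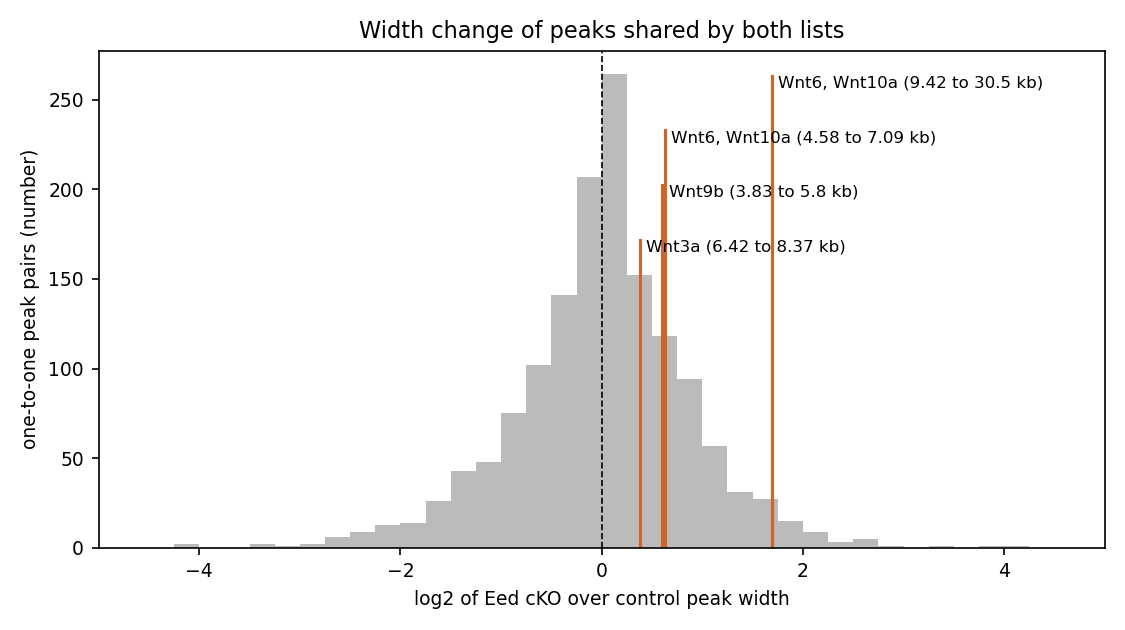
Number of peak pairs (vertical axis) by the log2 ratio of Eed cKO to control width (horizontal axis), for the 1470 cases in which 1 control peak met 1 Eed cKO peak (grey), with the 4 pairs at the Wnt ligand genes as orange lines whose height carries no value. All 4 lines stand to the right of the dashed line of equal width, and the line for the 9.42 kb control peak at Wnt6 and Wnt10a stands farthest out.

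Of the other 9 Wnt ligand genes, 5 had a peak in their window, and at 0 of these 5 did Eed cKO peaks cover more sequence than control peaks, against 33.0% of all genes with a peak. At Wnt9a and Wnt5b this rests on lost side peaks of 2.62 and 1.22 kb, since the peaks at their start sites met wider Eed cKO peaks, and the Wnt9a pair is the one in the Wnt3a window. Among the 9, Wnt2b, Wnt5b, Wnt9a and Wnt11 had peaks of both lists in their windows, Wnt8b had a control peak alone, and Wnt2, Wnt7a, Wnt8a and Wnt16 had none. At Wnt11, a ligand of cell movements, a 15.0 kb control peak covered the start site, and Eed cKO peaks of 3.37 and 8.27 kb lay on either side of the start site without covering it. At Wnt2b the 6.14 kb control peak over the start site was lost and a 2.65 kb peak further out was kept. At Wnt5b the 6.03 kb control peak over the start site met a 6.60 kb Eed cKO peak that began 808 bp after the start site. At Wnt8b a 10.4 kb control peak was lost. Start sites of Wnt2b, Wnt5b and Wnt11 were thus covered in control alone. Over all genes, 6.42% of start sites lay in a control peak and 3.72% in an Eed cKO peak. The members were chosen with these peaks in view, so differences between them and the other 9 genes are only a description.

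Other genes of the pathway, a list of 63 genes, had a control peak in their window in 27 cases (42.9%) and an Eed cKO peak in 20 (31.7%), with 17 common to the lists, 10 marked by control peaks only and 3 by Eed cKO peaks only. All genes stood at 21.2% and 14.3%. With the control list trimmed to its widest peaks, as many as in the Eed cKO list, 18 pathway genes had a control peak and 20 an Eed cKO peak, so the order of the lists turned. Among 16 receptor genes, 5 had control and 6 had Eed cKO peaks. Ror2, the Wnt5a receptor, had 36.2 kb of control peaks in its window, of which Eed cKO peaks covered 8.82%. Fzd5 and Fzd9, receptors of the Frizzled family, kept peaks of 3.15 and 5.41 kb, and the co-receptor gene Lrp5 had a 3.18 kb Eed cKO peak alone. Fzd6 had a 0.655 kb Eed cKO peak alone, 12869 bp outside the gene, and Ror1 a 2.17 kb control peak alone. Of the secretion genes Porcn and Wls, which lipidate and export Wnt proteins, neither had a peak.

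Secreted inhibitors had control peaks at 8 of 13 genes and Eed cKO peaks at 4, all of them among the 8. Over all genes with a control peak, 55.1% had an Eed cKO peak too. Dkk1, which blocks Lrp5 and Lrp6, had a 3.66 kb control peak, Sfrp5 one of 9.77 kb and Wif1 one of 8.04 kb, all in control alone. Sfrp2 had 12.8 kb of control and 14.3 kb of Eed cKO peaks in its window, and Notum, which removes the lipid from Wnt proteins, had 15.1 and 12.6 kb. At Sfrp1 the values were 7.64 kb for control and 4.42 kb for Eed cKO. R-spondins, their receptors and ligases had control peaks at 5 of 9 genes and an Eed cKO peak at 1, Lgr6. Lgr5, a receptor of hair follicle stem cells, had 12.1 kb of control peaks and no Eed cKO peak, and Rspo1 and Rspo2 had control peaks of 8.86 and 4.03 kb alone.

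In the cell, signal transduction genes had control peaks at 3 of 10 and Eed cKO peaks at 2, with 29.3 kb of control and 30.2 kb of Eed cKO peaks in the window of Apc2. The window of Axin1 held 18.2 kb of control and 12.0 kb of Eed cKO peaks, the nearest of them 3833 and 8027 bp outside the gene. Dvl2 had a 3.35 kb control peak alone, 11885 bp outside the gene. Nuclear factors had control peaks at 3 of 8 and Eed cKO peaks at 4. Lef1 kept a peak 643 bp outside the gene (3.31 kb in control, 4.35 kb in Eed cKO), while at Tcf7 5.59 kb of control and 1.80 kb of Eed cKO sequence was called. Tcf7l1 had 7.83 kb of control and 7.73 kb of Eed cKO peaks in its window, the nearest of them 11185 and 11239 bp outside the gene. Bcl9l had a 1.26 kb Eed cKO peak alone, 13396 bp outside the gene. Of 5 feedback targets, Axin2, Nkd1 and Sp5 had peaks of both lists. At Axin2 the peaks did not meet, as at Wnt3, and lay outside the gene. At Sp5 control peaks covered 21.2 kb and Eed cKO peaks 6.79 kb.

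**Figure D5:**
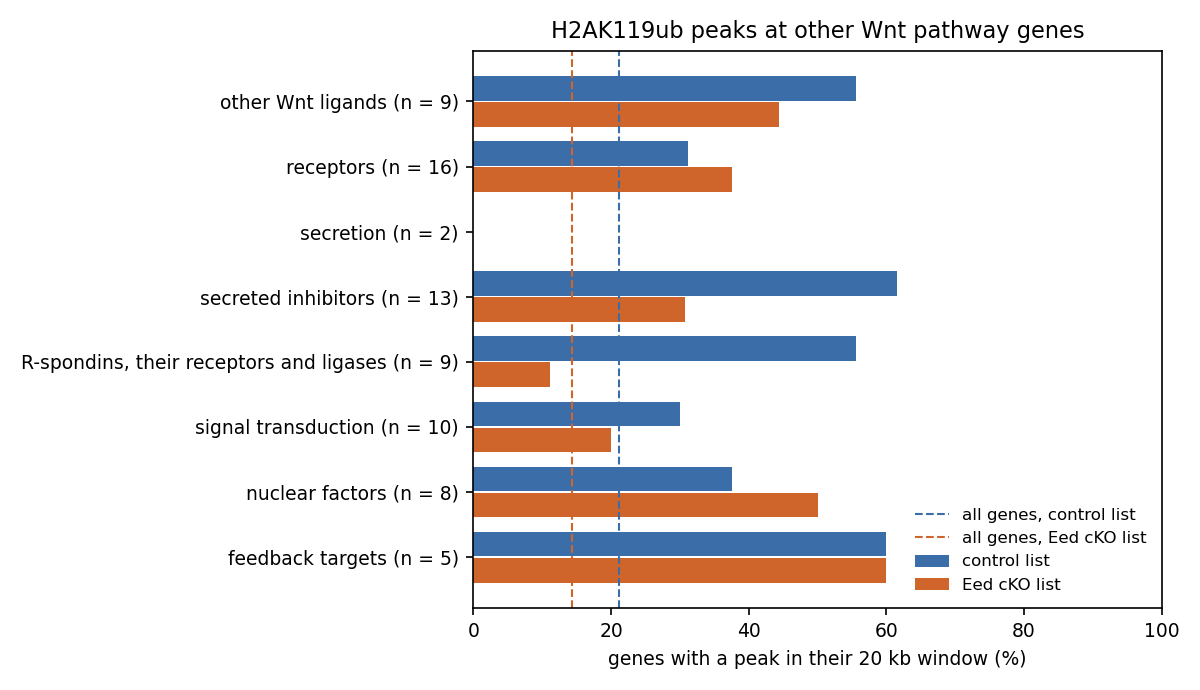
Share of genes with an H2AK119ub peak in their 20 kb window (horizontal axis, %) for the other Wnt ligand genes and the 7 roles of the pathway list, in the control list (blue) and the Eed cKO list (orange), with dashed lines at the share of all protein-coding genes. Secreted inhibitors and the R-spondin group have the longer control bars (8 against 4 and 5 against 1 genes). Over all genes with a control peak, 55.1% had an Eed cKO peak too. Receptors and nuclear factors have Eed cKO bars 1 gene longer. These bars include Fzd6 and Bcl9l, whose peaks of 0.655 and 1.26 kb lie 12869 and 13396 bp outside the genes.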

How the data were processed

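H2AK119ub was profiled by ChIP-seq in 8 libraries. The deposited values are peak positions (chromosome, start, end), 1 list for control and 1 for Eed cKO, per the file headers, with no score. Per the submitters' processing notes, Bowtie2 2.3.3.1, SAMtools 1.9 and mm10 were used. Which program called the peaks, at what threshold, with or without inputs, and how replicates were joined is not given in the sources used here. Starts were read as BED (counted from 0) and are printed from 1. Gene spans, start sites and promoter sequences are RefSeq's, GRCm38.p6; of several promoter entries for a gene the most upstream was used, which at Wnt6 and Wnt9b lies inside the gene span. No exon annotation or genome was used, so peaks are placed by gene span and start site.

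Peaks and genes were joined in Python 3.11.15 with pandas 2.3.3 and numpy 2.4.6; figures used matplotlib 3.10.9. On simulated data 400 of 400 genes and 200 of 200 control peaks were classed rightly. With 1 list per genotype there is no replicate error and no test was made. All members and other ligand genes are named, with other genes touched by their peaks and, per pathway role, up to 3 genes of each class with the widest peaks. Members and lists were chosen with earlier results of these data known. Alternatives changed the window, the lists and the overlap rule.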

Additional observations from a re-analysis of the deposited data

How the results depend on the processing

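All alternatives were planned, and 84 of 90 values stayed equal to the reported value or within 1.5 times of it. With percents and median widths held to their exact value, 73 of 90 stayed the same and 17 moved. Windows of 2 and 10 kb left 2 and 1 of the 10 genes in neither list. Either window left 5 genes with peaks of both lists. With 50 kb, 0 were in control alone, 1 in Eed cKO alone and 5 control peaks were lost. Of the 3 added lost peaks, 2 lay in the window of Wnt7b and 1 in that of Wnt10a, and Wnt5a and Wnt7b then had peaks of both lists. Covered control sequence was 50.1%, 54.7% and 47.4% with 2, 10 and 50 kb, and Eed cKO sequence was 185%, 164% and 128% of control. With the wider peaks of each list, or the control list trimmed to the Eed cKO number, these were 59.1% and 167%, and Wnt9b moved to Eed cKO alone. Merging peaks within 1000 bp gave a median Eed cKO width of 7919.5 bp. Trimming the control list gave 18 pathway genes with a control peak in place of 27, against 20 with an Eed cKO peak, so the order of the lists turned. Requiring 50% coverage made 1 peak at Wnt6 and Wnt10a newly called. Direction did not change: Eed cKO sequence exceeded control sequence in the joined windows under each alternative run. No paired analysis was possible because each genotype has 1 peak list, and for the same reason no replicate could be left out. Depth behind the lists is unknown.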
